A study of Mus musculus with 14 samples.

Results

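The 10 genes described here encode the calcium store of the muscle cell: the buffers calsequestrin 2 and calsequestrin 1 (Casq2, Casq1), the pumps SERCA2 and SERCA3 (Atp2a2, Atp2a3), the pump regulators phospholamban and sarcolipin (Pln, Sln), the release channels ryanodine receptor 2, ryanodine receptor 3 and inositol trisphosphate receptor 1 (Ryr2, Ryr3, Itpr1), and the store sensor Stim1. They were chosen by name, as members of 1 physiological system, out of 40481 genes in the bulk count table. The choice was made with earlier results of these data known, so counts of members called are no test of the list. All 10 passed the filter on low counts and were among the 20886 genes tested. In the colon libraries labelled KO, Casq2 was 11.0-fold lower and Pln 7.60-fold lower than in wild type, and the other 8 genes did not pass the test.

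The material was the muscularis, the muscle coat of the gut, separated by hand from colon and jejunum of C57BL/6 mice. The groups carried the genotype labels Carmn iKO (called KO below) and WT mTmG (called WT), where Carmn is a long noncoding RNA gene expressed in smooth muscle and mTmG is a fluorescent reporter allele. Bulk RNA sequencing covered 3 libraries of each genotype in each tissue, 12 in all, named here by their tags: m1, t4 and t6 (KO colon), t1, t6 and t7 (WT colon), m1, t1 and t4 (KO jejunum) and t1, t6 and t7 (WT jejunum). Nuclei from colon muscularis were profiled for RNA and chromatin accessibility in 1 WT and 1 KO library. The sources used here do not give the way in which Carmn was deleted, the cells it was deleted from, whether the KO mice carried the reporter, any treatment, the age of the mice or any pooling of animals. Nothing in the labels says that libraries of a group came from separate animals, so p-values measure the spread between these libraries.

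Smooth muscle contracts when calcium enters the cytoplasm, partly from outside and partly from the sarcoplasmic reticulum. Calsequestrin holds calcium inside this store, SERCA pumps refill it, and phospholamban and sarcolipin, small membrane proteins, slow the pump until they are phosphorylated or withdrawn. Ryanodine receptors and inositol trisphosphate receptors let the calcium out, and STIM1 senses an emptying store and opens entry channels in the cell surface. Casq2 and Pln are best known from the heart and are also made by smooth muscle, while Casq1 is the main calsequestrin of fast skeletal muscle.

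Bulk libraries held between 24254905 and 44315104 counts. The count of Carmn did not check the labels: in CPM (counts per 1000000 counts of the library, after scaling) it lay between 304 and 718 in the colon libraries labelled KO and between 171 and 351 in WT colon (edgeR adjusted p = 0.234), and between 817 and 996 against 206 to 326 in jejunum (adjusted p = 0.0646). Directions below therefore refer to the libraries as labelled. All 10 smooth muscle markers had lower mean levels in KO colon, with none called, and their summed level ran from 34878 to 47530 CPM against 51782 to 75568 CPM in WT colon. In jejunum the same sum ran from 49574 to 93637 CPM in KO and from 48314 to 53352 CPM in WT. Libraries KO colon t4 and KO jejunum m1 stood apart from the others of their groups, with summed fibroblast markers of 12838 and 7365 CPM against 2611 to 5794 CPM in the other 10 libraries, and results that they move are given with and without them.

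Casq2 (ENSMUSG00000027861, chromosome 3, 102086415 to 102146514, plus strand, mm10) and Pln (ENSMUSG00000038583, chromosome 10, 53337667 to 53345987, plus strand) were the members that changed, so the 250 bases before the RefSeq start of each are printed first. The sequences come from the RefSeq promoter table on GRCm38.p6, and distances below count from that start; for Pln it lies downstream of the GENCODE start given above, so the end of the printed window is inside the GENCODE gene. They run 5′ to 3′, at chr3:102086165-102086414 and chr10:53337436-53337685, both on the plus strand. Capitals mark matches to the E box (CANNTG, the core letters read by basic helix-loop-helix factors) and, in Casq2, to the MEF2 box, the A- and T-rich motif of the MEF2 family of muscle factors.
Casq2: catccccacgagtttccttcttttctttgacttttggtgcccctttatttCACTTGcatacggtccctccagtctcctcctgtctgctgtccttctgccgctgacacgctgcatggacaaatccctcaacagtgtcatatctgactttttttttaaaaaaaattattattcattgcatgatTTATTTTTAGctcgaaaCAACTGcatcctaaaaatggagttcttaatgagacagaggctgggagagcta
Pln: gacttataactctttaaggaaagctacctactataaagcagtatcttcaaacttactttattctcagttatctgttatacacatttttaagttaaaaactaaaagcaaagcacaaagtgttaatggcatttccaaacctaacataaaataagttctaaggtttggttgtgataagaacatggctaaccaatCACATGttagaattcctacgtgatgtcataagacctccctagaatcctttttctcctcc
Casq2 had 2 E boxes, 200 and 52 bases before its RefSeq start, and 1 MEF2 box at 69 bases. Pln had 1 E box at 59 bases and no MEF2 box. Searched on both strands over 32536 promoter windows of 250 bases, an E box occurred in 66.2% of all windows and a MEF2 box in 2.89%. The CArG box, the motif of serum response factor, which controls many smooth muscle contractile genes, occurred in 1.48% of windows and in none of the 6 members with an entry in the table (Casq2, Casq1, Pln, Atp2a3, Ryr2 and Stim1). These are matches of letters in a short window, not binding sites.

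The first question was how the store genes differ between genotypes in colon. Of the 10 members, 2 were called at an adjusted p below 0.05, both lower in KO, where 0.388% of all genes tested were called in either direction. The same 2 were the only members whose 3 KO and 3 WT values did not overlap, against 19.2% of all genes. Of the 10 fitted changes, 7 were below 0, with a median of -0.31 on the log2 scale, where the median over all genes tested was 0.00.

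**Figure D1:**
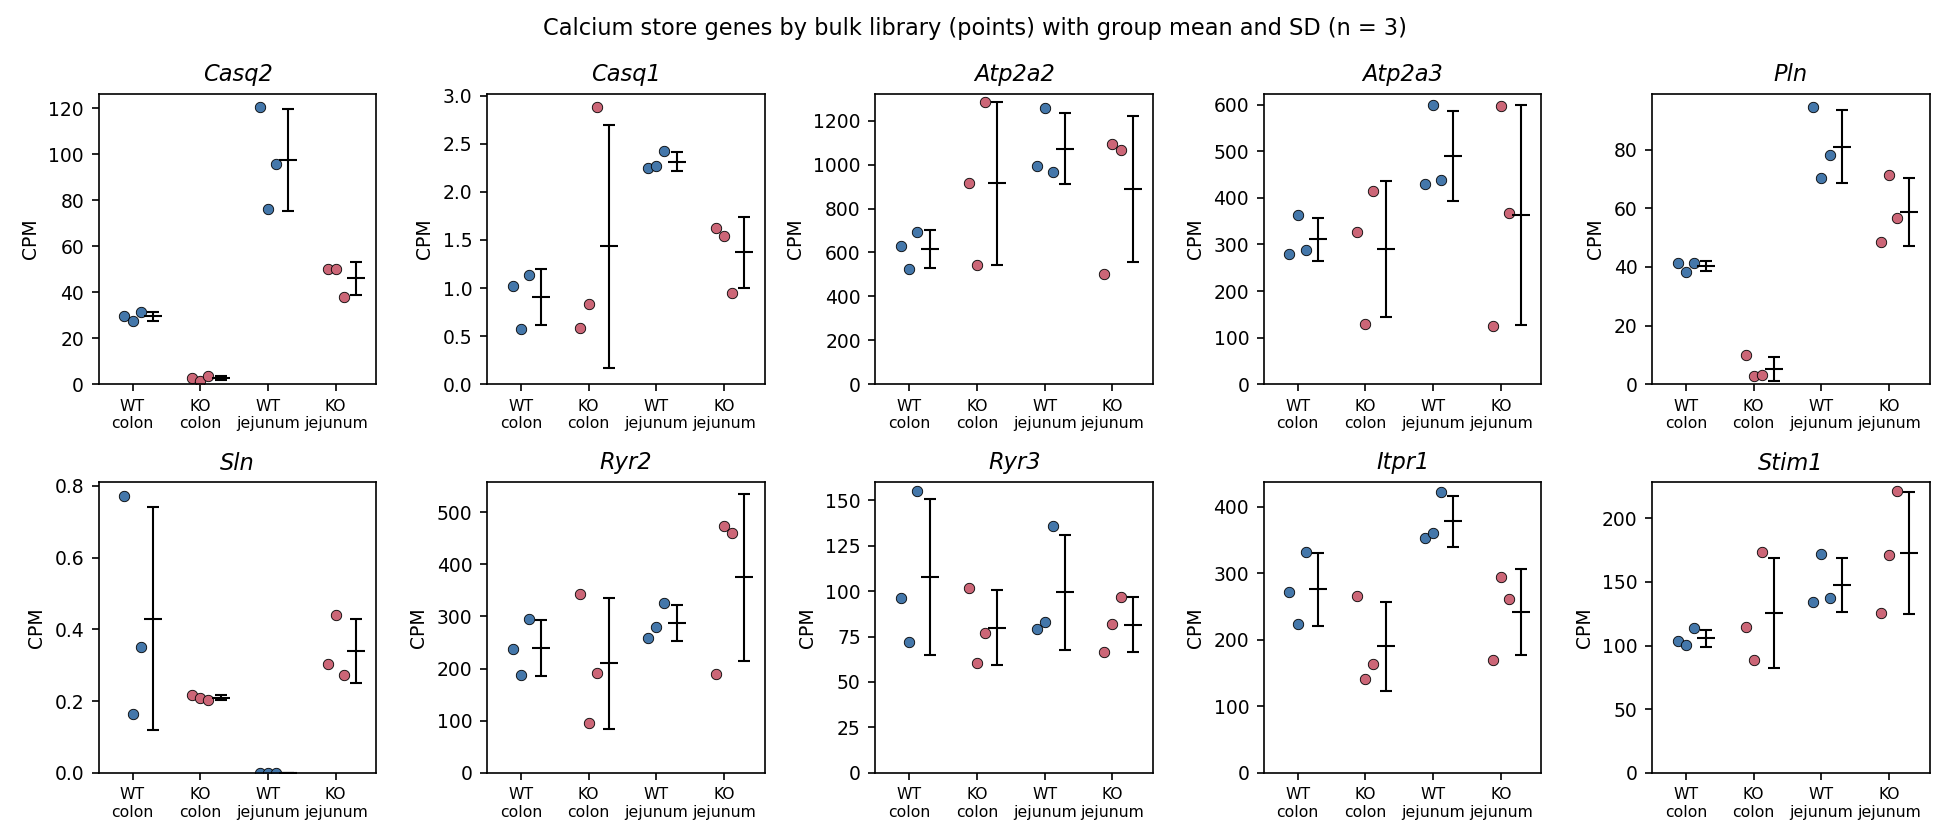
CPM of each of the 10 genes on a linear axis from 0, with a point for each of the 12 bulk libraries and the mean and SD of each group of 3, by tissue and genotype label. Casq2 and Pln in KO colon sit below every WT colon library, while points of the other members overlap between genotypes in colon.

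Casq2 encodes the high-capacity calcium buffer of cardiac and smooth muscle stores. It stood at 29.6, 27.6 and 31.6 CPM in WT colon t1, t6 and t7, and at 2.93, 1.63 and 3.47 CPM in KO colon m1, t4 and t6. Every KO library was far below every WT library. The WT values lay close together, while the KO values ran from 1.63 to 3.47 CPM. The fitted change was -3.46 on the log2 scale, with an SE of 0.28 (edgeR adjusted p = 0.00113), and Casq2 had the smallest p of all 20886 genes tested in colon. It was called after leaving out each of the 12 libraries in turn, but not in a fit to the 6 colon libraries alone (log2 fold change -3.44, adjusted p = 0.109). In bulk tissue, fewer smooth muscle cells and less RNA per cell cannot be told apart. Scaling the libraries to the smooth muscle markers shifted the median of all genes by 0.69 in colon. With that scaling Casq2 was at -2.83 (edgeR adjusted p = 0.00117). The markers stand for smooth muscle as a whole, and the part of fewer Casq2-expressing cells was not tested.

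Casq1, the calsequestrin of fast skeletal muscle, was near the lower limit of detection. Its levels were 1.02, 0.577 and 1.13 CPM in WT colon and 0.586, 0.833 and 2.89 CPM in KO colon. The groups overlapped, and the highest value, in KO colon t6, set the direction: the log2 fold change was 0.66 (adjusted p = 0.640) with that library and -0.33 without it. The other skeletal muscle genes did not follow that library, since the summed level of 7 skeletal muscle markers was 20.6 to 28.9 CPM in KO colon against 76.2 to 117 CPM in WT colon. All 6 of those markers tested had lower fitted levels in KO, 1 of them called (Ckm, muscle creatine kinase, log2 fold change -1.76, adjusted p = 0.0320). Whether skeletal muscle contributed to the Casq2 difference was not tested.

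Phospholamban, which holds back SERCA2, fell with Casq2 in KO colon. Pln was at 41.3, 38.4 and 41.5 CPM in WT colon and at 10.0, 2.74 and 3.11 CPM in KO colon m1, t4 and t6. All KO values were below all WT values, with m1 less reduced than the other 2 libraries. The change was -2.93 on the log2 scale, with an SE of 0.43 (adjusted p = 0.0240), the 21st smallest p in colon. The call was lost without WT colon t1 (adjusted p = 0.0889), without WT colon t6 (0.0655), without KO colon t6 (0.0962), and in a fit to the 6 colon libraries alone, with fold changes between -2.64 and -2.95 in these 4 fits. Without KO colon t4 and KO jejunum m1 together, an exclusion chosen after seeing the data, Casq2 (-3.19) and Pln (-2.61) were both still called.

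For Pln, 64.7% of the exon length overlaps exons of genes on the other strand, chiefly the centrosomal protein gene Cep85l, and the sources used here do not say whether strand was used in counting. Cep85l itself ranged from 31.1 to 39.9 CPM in WT colon and from 34.1 to 46.8 CPM in KO colon (log2 fold change 0.24, adjusted p = 0.658). Its KO values were not below its WT values. The Casq2 exons overlap no other gene.

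Sarcolipin, the second small inhibitor of SERCA, was barely present in colon. Sln was at 0.772, 0.165 and 0.351 CPM in WT and at 0.217, 0.208 and 0.203 CPM in KO. The groups overlapped (log2 fold change -1.02, adjusted p = 0.537).

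The pumps did not pass the test in colon. Atp2a2, the SERCA2 gene and the most abundant member per length, was at 631, 523 and 692 CPM in WT and at 918, 543 and 1283 CPM in KO, with KO t4 inside the WT range (log2 fold change 0.57, adjusted p = 0.486). Without KO colon t4 and KO jejunum m1 the change of Atp2a2 was 0.86 (adjusted p = 0.0739). Atp2a3, the SERCA3 gene, was at 280.1, 364 and 289 CPM in WT and at 328, 130.0 and 415 CPM in KO (log2 fold change -0.10, adjusted p = 0.960). The sign for Atp2a3 rested on single libraries, being 0.26 without KO t4 and 0.05 without WT t6.

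The release channels overlapped between genotypes in colon. Ryr2 was at 238, 188 and 295 CPM in WT and at 343, 95.1 and 192 CPM in KO (log2 fold change -0.20, adjusted p = 0.892), and without KO t4 its sign turned to 0.15. Ryr3 was at 96.0, 72.1 and 155 CPM in WT and at 102, 60.5 and 77.1 CPM in KO (-0.43, adjusted p = 0.569). Itpr1, the receptor for the second messenger inositol trisphosphate, was at 272, 223 and 332 CPM in WT and at 266, 141 and 163 CPM in KO (-0.54, adjusted p = 0.402), so that 2 of 3 KO libraries lay below the WT range. Against the smooth muscle markers the fitted signs of Atp2a3, Ryr2, Ryr3 and Itpr1 were positive (0.47, 0.48, 0.30 and 0.17), each below the 0.69 by which this scaling moved the median gene. Stim1, which signals an empty store to the surface channels, was at 104, 100.2 and 113 CPM in WT and at 115, 88.5 and 173 CPM in KO (0.25, adjusted p = 0.725), and at -0.04 without KO t6.

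**Figure D2:**
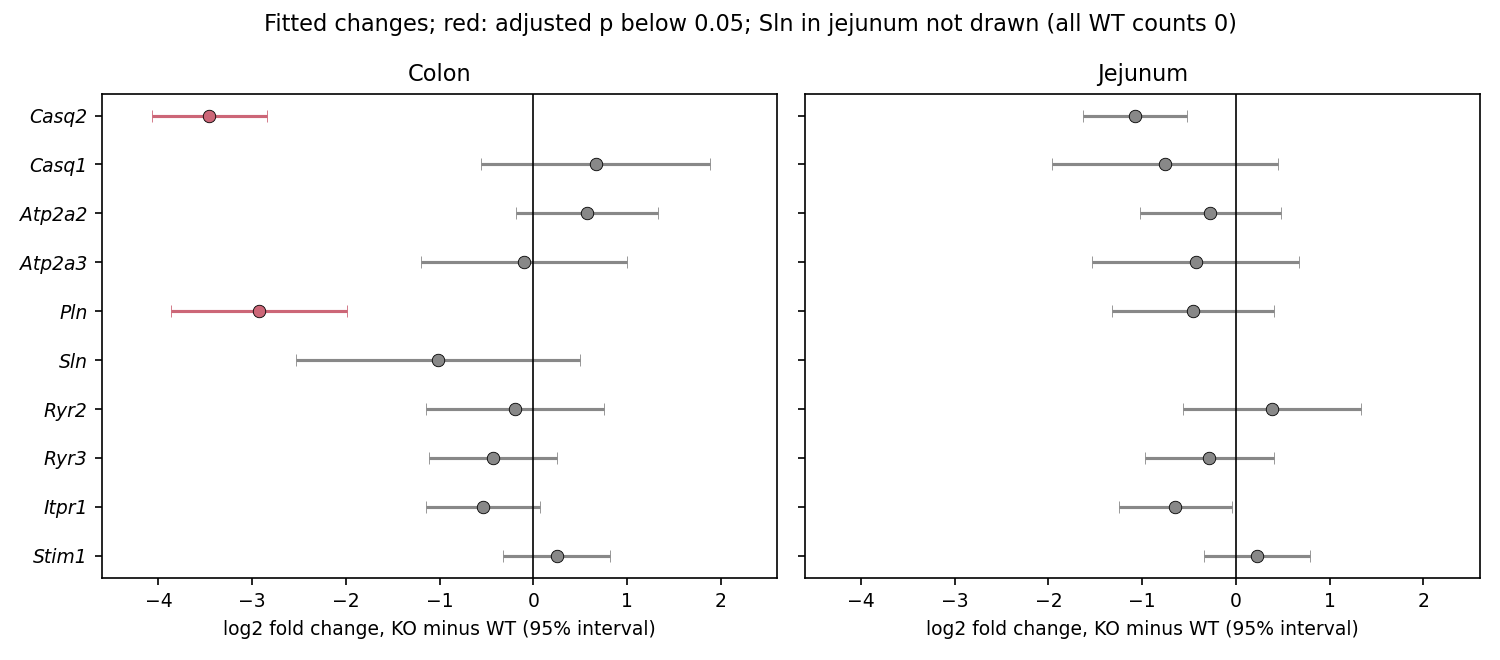
Fitted log2 fold change of the 10 genes, KO against WT, with 95% intervals, in colon and in jejunum; Sln in jejunum is not drawn because its WT libraries are at 0. Casq2 and Pln in colon lie farthest below 0 and are the called members.

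In jejunum, none of the 10 members was called by edgeR, where 0.215% of all genes tested were; 3 members had an unadjusted p below 0.05 (13.2% of all genes), and DESeq2 called 2 (Casq2 and Sln), with 3.95% of all genes called. Values of 4 members did not overlap between genotypes, against 22.2% of all genes: Casq2, Casq1 and Itpr1 were lower and Sln was higher in every KO library. Here too 7 of the 10 fitted changes were below 0, with a median of -0.36, beside 0.02 over all genes tested.

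Casq2 was at 120, 76.1 and 95.8 CPM in WT jejunum t1, t6 and t7 and at 50.3, 50.1 and 37.9 CPM in KO jejunum m1, t1 and t4. Every KO value was below every WT value, and the fitted change was -1.08 with an SE of 0.25 (edgeR adjusted p = 0.113). It passed the threshold without KO colon t4, a library of the other tissue that adds to the shared spread (adjusted p = 0.0332), and without KO colon t4 and KO jejunum m1 together (-1.17, adjusted p = 0.0430). Pln, at 94.5, 70.2 and 78.3 CPM in WT and 48.4, 71.3 and 56.7 CPM in KO, overlapped between genotypes (-0.46, adjusted p = 0.654).

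Itpr1 was at 353, 360 and 422 CPM in WT jejunum and at 170, 294 and 261 CPM in KO jejunum. All KO values were below all WT values, with a log2 fold change of -0.65 (unadjusted p = 0.0381, edgeR adjusted p = 0.347), and -0.47 without KO colon t4 and KO jejunum m1. Casq1 was at 2.25, 2.27 and 2.42 CPM in WT and at 1.62, 1.54 and 0.951 CPM in KO (-0.76, adjusted p = 0.588). Skeletal muscle markers summed to 116 to 129 CPM in WT jejunum and to 41.8 to 93.9 CPM in KO jejunum. Most of that sum was Ckm, at 111 to 124 CPM in WT and 38.0 to 79.0 CPM in KO. Of the 6 markers tested, 5 had higher fitted levels in KO jejunum and 1 lower, with none called. The part of skeletal muscle in the Casq1 values was not tested.

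Sln had no count in any WT jejunum library, and 6, 16 and 12 counts in KO jejunum m1, t1 and t4, or 0.305, 0.440 and 0.272 CPM. Set against a floor of 3 counts over the 3 WT libraries together, it was at least 11.2-fold higher in KO (edgeR adjusted p = 0.0722). Even so, its KO level was that of a gene barely detected.

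The remaining members overlapped between genotypes in jejunum. Atp2a2 was at 995, 1259 and 966 CPM in WT and 504, 1092 and 1069 CPM in KO, and Atp2a3 at 430, 600 and 438 CPM in WT and 126, 596 and 368 CPM in KO. In both pump genes the lowest value belonged to KO jejunum m1. The change was -0.27 for Atp2a2 and -0.43 for Atp2a3 with all libraries, and -0.016 and -0.046 without KO colon t4 and KO jejunum m1. Ryr2 was at 258, 279 and 326 CPM in WT and 190.1, 474 and 461 CPM in KO, with the same library lowest and the other 2 above the WT range (log2 fold change 0.38 with all libraries and 0.67 without those 2). Ryr3 ranged from 79.1 to 136 CPM in WT and from 66.3 to 96.7 CPM in KO, and Stim1 from 134 to 172 CPM in WT and from 126 to 222 CPM in KO. Macrophage markers summed to 539 to 1364 CPM in KO jejunum against 160 to 390 CPM in WT. Vascular mural markers summed to 1779 to 3178 CPM against 3829 to 5214 CPM. Of these 7 mural markers, 5 had higher fitted levels in KO jejunum and 2 lower, with none called. The part of either class in the values of the members was not tested.

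Whether the genotype difference itself differed between tissues was tested as the colon change minus the jejunum change. No gene of the 20886 passed by edgeR (0% called), and 3 of the 10 members had an unadjusted p below 0.05, as did 4.16% of all genes. The difference was -2.38 for Casq2 (adjusted p = 0.353) and -2.46 for Pln (adjusted p = 0.911) on the log2 scale. DESeq2 called both, with 0.217% of all genes called. Pln also passed in edgeR without KO colon m1 (-3.32, adjusted p = 0.00474), the colon library in which it was least reduced.

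Between the WT tissues, 2 members were called, with 1.56% of all genes tested called. Casq2 was lower in colon than in jejunum with a difference of -1.72 on the log2 scale and an SE of 0.26 (edgeR adjusted p = 0.00938). Sln was higher in colon, at least 14.0-fold against the same floor (adjusted p = 0.0233); that call was lost without WT colon t1 or any 1 of the WT jejunum libraries, at adjusted p of 0.0727 to 0.0958. DESeq2 also called Casq2 and Sln, with 5.68% of all genes called, and 5 members had an unadjusted edgeR p below 0.05, as did 13.1% of all genes. Values of 8 members did not overlap between the WT tissues, 7 lower and 1 higher in colon, against 22.9% of all genes. Pln (-1.003, adjusted p = 0.293), Casq1 (-1.35, 0.319) and Atp2a2 (-0.80, 0.343) were among those with lower values in every WT colon library that did not pass. In an edgeR fit to the 6 WT libraries alone, Pln (-1.02, adjusted p = 0.00939) and Atp2a2 (-0.82, adjusted p = 0.0472) did pass. The share of all genes called in that fit is not given here. These calls were therefore not set apart from a change in calls over all genes. Marker levels of other cells also differed between the WT tissues, in both directions. In colon and jejunum, vascular mural markers summed to 1028 to 1310 against 3829 to 5214 CPM, and mesothelial markers to 159 to 424 against 782 to 1579 CPM. Markers of interstitial cells of Cajal summed to 583 to 728 against 1084 to 1233 CPM. Higher in colon were lymphatic endothelial markers, at 322 to 460 against 29.97 to 168 CPM. Enteric neuron markers were also higher there, at 750.05 to 1257 against 585 to 721 CPM. All 8 epithelial markers had higher fitted levels in colon, with none called, while their sums overlapped. Skeletal muscle markers summed to 76.2 to 117 against 116 to 129 CPM, while 5 of the 6 tested had higher fitted levels in colon, 2 of them called. Their part in the tissue difference of the members was not tested. The Casq2 level of KO jejunum, 46.1 CPM on average, was above the WT colon average of 29.6 CPM.

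Divided by exon length, levels can be set beside each other. They are levels of the whole tissue, and epithelial markers summed to 85.9 to 3737 CPM in the WT colon libraries. Their part in the level of Atp2a3, which was highest in epithelial-like nuclei (below), was not tested. In WT colon the order, in CPM per kb of exon (mean ± SD, n = 3), was Atp2a2 (101 ± 14.1), Atp2a3 (58.9 ± 8.75), Itpr1 (15.05 ± 2.97), Pln (14.7 ± 0.623), Casq2 (10.8 ± 0.729), Stim1 (10.2 ± 0.662), Ryr2 (8.35 ± 1.86), Ryr3 (5.68 ± 2.26), Casq1 (0.466 ± 0.150) and Sln (0.326 ± 0.236). The neighbours Itpr1 and Pln, each neighbouring pair from Casq2 down to Ryr3, and Casq1 and Sln differed by less than the sum of their SDs. In KO colon the pumps still led, while Pln stood at 1.92 ± 1.48 and Casq2 at 0.978 ± 0.345 CPM per kb, below Ryr3 (4.20 ± 1.09). In WT jejunum Casq2 (35.6 ± 8.12) and Pln (29.4 ± 4.47) followed the pumps Atp2a2 (177 ± 26.6) and Atp2a3 (92.6 ± 18.2) within their spread of each other. In KO jejunum Casq2 was at 16.8 ± 2.601 and Pln at 21.3 ± 4.20 CPM per kb, again within their spread.

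The balance between genes within a library does not depend on depth or scaling. Pln per kb amounted to 14.4%, 16.2% and 13.2% of Atp2a2 in the WT colon libraries and to 2.40%, 1.11% and 0.535% in KO colon m1, t4 and t6. The ranges are well apart, and in each KO colon library there was less message for the inhibitor relative to the pump. In jejunum the share was 17.0% ± 4.38 in WT and 15.8% ± 4.90 in KO (SD, n = 3), with overlapping values. The Casq2 to Casq1 ratio per kb was 24.9 ± 7.98 in WT colon and 1.94 ± 1.43 in KO colon, and was 30.1 in WT and 24.6 in KO jejunum on average.

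The balance of Itpr1 to Ryr2 was separate between genotypes in jejunum. Itpr1 per kb was 2.07 ± 0.0660 times Ryr2 in WT jejunum and 1.09 ± 0.277 times Ryr2 in KO jejunum (SD, n = 3), with all KO values (1.41, 0.974 and 0.889) below all WT values. In colon the ratio averaged 1.81 in WT and 1.63 in KO, and the values overlapped. Ryr2 to Ryr3 per kb, also computed, overlapped between genotypes in both tissues. Atp2a2 to Atp2a3 per kb ran from 1.25 to 2.08 in WT colon and from 2.43 to 3.63 in KO colon, without overlap. In jejunum that pump ratio overlapped, at 1.82 to 2.01 in WT and 1.59 to 3.48 in KO. With 3 libraries against 3, an exact permutation test of a ratio cannot give a two-sided p below 0.1, so these separations carry no test.

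**Figure D3:**
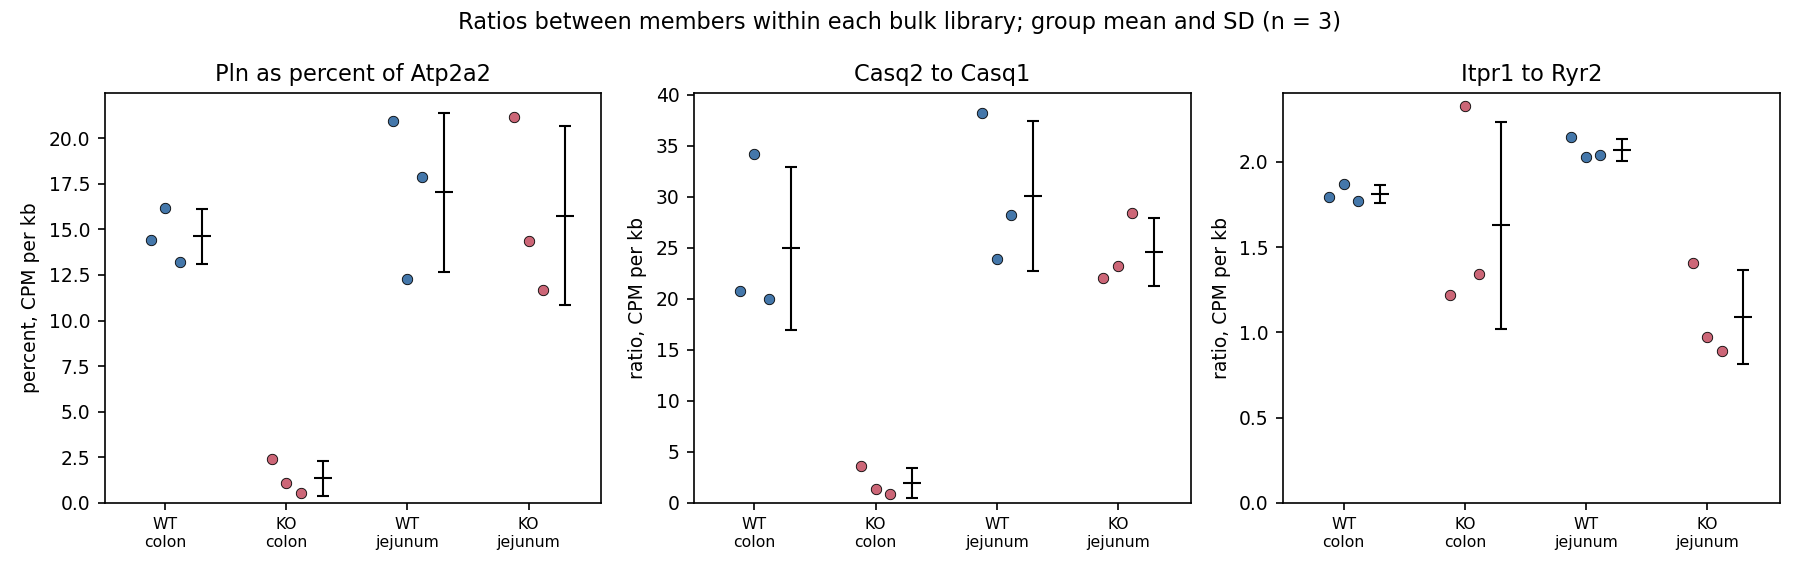
Ratios of levels per kb of exon within each of the 12 bulk libraries, by tissue and genotype label, with a point for each library and the mean and SD of each group of 3, on linear axes from 0. Pln relative to Atp2a2 lies at 0.535% to 2.40% in KO colon and at 13.2% to 16.2% in WT colon.

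The wider calcium handling list had 31 genes, of which 30 were in the table and tested. None was called by edgeR in colon or jejunum, and at an unadjusted p below 0.05 there were 7 in colon, where 14.5% of all genes were, and 4 in jejunum, where 13.2% were. DESeq2 called 3 in colon and 1 in jejunum, with 5.01% and 3.95% of all genes called. The medians of their changes were 0.04 (colon) and -0.07 (jejunum) on the log2 scale. In colon the smallest p belonged to Srl, which encodes the calcium-binding store protein sarcalumenin, at 6.52 to 7.64 CPM in WT and 2.18 to 3.23 CPM in KO (log2 fold change -1.39, SE 0.27, adjusted p = 0.0607). Next came Jph2, the junctophilin that ties the store to the surface membrane (-0.93, adjusted p = 0.151), and the plasma membrane calcium pump gene Atp2b4 (-1.02, adjusted p = 0.191). In jejunum it was Tmem38a, a potassium channel of the store membrane, at 40.5 to 46.3 CPM in WT and 17.4 to 25.4 CPM in KO (-0.95, adjusted p = 0.0984), followed by Itpr3 (-0.76, adjusted p = 0.287) and Ppp1r1a (-0.93, adjusted p = 0.320), which encodes an inhibitor of protein phosphatase 1.

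Across the 12 bulk libraries, the genes whose log2 CPM ran most like that of Casq2, out of 14762 compared, were C1ql3 (Pearson r = 0.967), Pln (0.965), Pcp4 (0.965), Ppp1cb (0.957) and Dpp4 (0.956). Those most like Pln were Thnsl1 (0.971), Vnn1 (0.968), Mtus2 (0.965), Casq2 (0.965) and Pcp4 (0.964). So Casq2 and Pln were each among the 5 genes closest to the other. Ppp1cb encodes the catalytic subunit of the phosphatase that acts on myosin. The 12 points fall into 4 groups that differ in tissue and genotype, so these values describe the groups as much as the libraries.

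Nuclei placed the genes in cell types. After a minimum of 500 UMIs (unique molecules counted) per nucleus, 2670 WT and 1741 KO colon nuclei were kept, with medians of 1689.5 and 1981 UMIs, and 11 barcodes occurred in both libraries. With 1 library per genotype there is no test: intervals below cover counting error at the 95% level only. Clusters carrying 6 to 10 of the 10 smooth muscle markers, numbered 0 to 3, form the smooth muscle-like class of 885 WT nuclei (33.1%) and 424 KO nuclei (24.4%), with medians of 1902 and 2404.5 UMIs. Members and calcium genes were left out of the clustering. Most WT nuclei of the class lay in cluster 2 (489), led by Colec10 and Nek10, and the largest share of KO nuclei in cluster 1 (187), led by Igfbp2 and Fgf7, so the class differs in make-up between the libraries.

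Casq2 and Pln were mostly smooth muscle-like transcripts, with 56 of 72 Casq2 UMIs and 161 of 208 Pln UMIs of the WT library in that class. Levels in nuclei are UMIs per 1000000 UMIs of the same class or cluster and library, also written CPM. In smooth muscle-like nuclei Casq2 had 24.2 CPM in WT and 6.72 CPM in KO, from 56 and 10 UMIs, a ratio of 0.277 (0.126 to 0.548). Pln had 69.7 and 29.6 CPM, from 161 and 44 UMIs, a ratio of 0.424 (0.297 to 0.595). Casq2 was seen in 5.42% of WT and 2.36% of KO nuclei of the class, and Pln in 12.8% and 8.25%. In epithelial-like nuclei, which should lack both (median 1435 UMIs in WT and 1361 in KO), Casq2 was seen in 0.272% and Pln in 1.09% of WT nuclei, and neither in 139 KO nuclei, which allows a share of up to 2.16%. Thinned to 500 UMIs per nucleus, Pln was seen in 3.28% of WT and 1.89% of KO nuclei, while Casq2 was left with 6 of 885 and 3 of 424 nuclei, too few to order.

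Within clusters, Casq2 was at 31.2 CPM in WT and 8.54 in KO nuclei of cluster 2 (ratio 0.274, 0.0544 to 0.854). Pln in cluster 2 was at 92.2 and 71.2 CPM, a ratio of 0.772 whose interval (0.482 to 1.19) includes 1, and in cluster 1 at 38.0 and 14.9 (0.393, 0.143 to 1.005). The Casq2 values of cluster 2 came from 44 UMIs in WT and 3 in KO. For Pln the intervals of clusters 1 and 2 overlapped each other and that of the whole class. Whether the make-up of the class had a part in either difference was not tested.

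**Figure D4:**
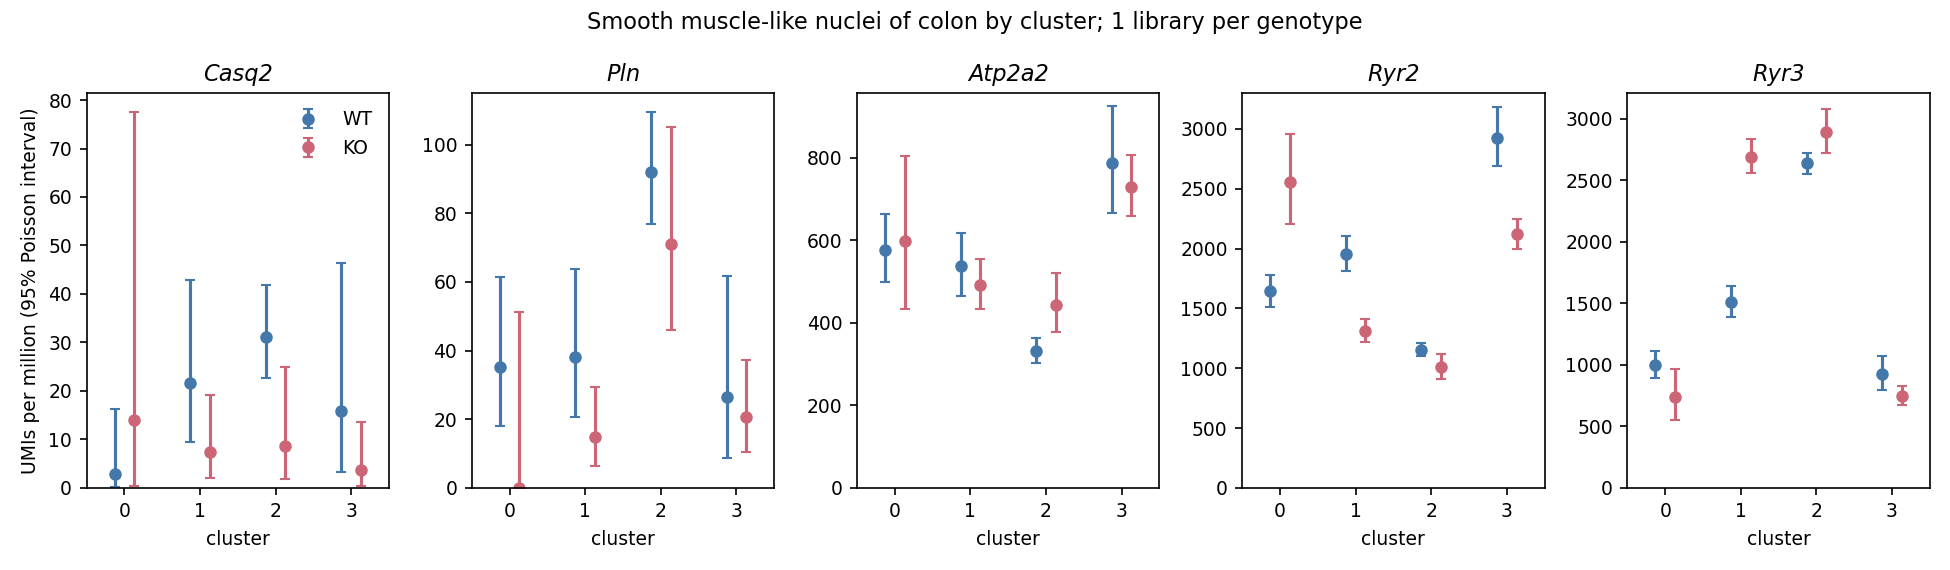
CPM (UMIs per 1000000 UMIs of the cluster and library) of Casq2, Pln, Atp2a2, Ryr2 and Ryr3 in the 4 smooth muscle-like clusters, WT and KO library side by side, with exact Poisson 95% intervals. Casq2 in cluster 2 is at 31.2 in WT and 8.54 in KO; Pln is highest in cluster 2 in both libraries.

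Of the 8 members with at least 20 UMIs over both libraries in the class, 6 had a ratio below 1. The pumps differed in direction: Atp2a2 was at 438 CPM in WT and 570.2 in KO (ratio 1.30, 1.19 to 1.43), and Atp2a3 at 44.2 and 24.8 (0.563, 0.375 to 0.827). With a minimum of 1000 UMIs per nucleus the Atp2a3 ratio was 0.283 (0.134 to 0.544). The Atp2a3 difference was not limited to this class. Its ratio was 0.224 (0.108 to 0.430) in fibroblast-like cluster 11 and 0.0381 (0.00431 to 0.157) in blood endothelial-like nuclei. In epithelial-like clusters 4 and 6 it was 0.588 (0.370 to 0.909) and 0.809 (0.617 to 1.05). Outside the class Stim1 went both ways, at 0.320 (0.126 to 0.717) in glia-like cluster 8 and 1.18 (0.754 to 1.78) in cluster 6. Stim1 was at 251 and 177 (0.705, 0.607 to 0.817), where the bulk colon estimate was 0.25 on the log2 scale. Itpr1 was at 551 and 486 CPM (0.880), Ryr2 at 1500.3 and 1589 (1.06) and Ryr3 at 2074 and 1954 (0.942). Sln gave 1 UMI in WT and none in KO, and Casq1 none in WT and 2 in KO.

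The ryanodine receptors stood in opposite order in smooth muscle-like clusters 2 and 3. In WT nuclei Ryr3 was at 2637 CPM in cluster 2 and at 925 in cluster 3, and Ryr2 at 1156 in cluster 2 and 2928 in cluster 3. The same order held in KO, with Ryr3 at 2896 and 748 and Ryr2 at 1011 and 2121. In cluster 1, Ryr3 was at 1509 in WT and 2693 in KO (ratio 1.79, 1.62 to 1.97), and Ryr2 at 1954 and 1311 (0.671, 0.604 to 0.746). In cluster 0 the directions were turned round, with ratios of 1.56 for Ryr2 (1.31 to 1.84) and 0.739 for Ryr3 (0.542 to 0.989). In cluster 3 both were below 1, at 0.724 and 0.809, and in cluster 2 they were 0.874 and 1.10. No common direction held over the clusters for either receptor. Itpr1 was lower in the KO library in clusters 0, 1 and 2 (ratios 0.635, 0.698 and 0.741) and not in cluster 3 (1.19, 0.950 to 1.495).

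Other store proteins in the smooth muscle-like class differed both ways between the libraries. Srl was at 54.5 CPM in WT and 24.2 in KO (ratio 0.443). Calr, the calcium buffer of the general endoplasmic reticulum, was at 13.9 and 32.9 (2.38), whereas in bulk colon it averaged 386 CPM in WT and 298 CPM in KO (log2 fold change -0.38, adjusted p = 0.709). Calr was also higher in the KO library in enteric glia-like (1.96), epithelial-like (2.24) and mesothelial-like nuclei (3.69), so the difference was not limited to the smooth muscle-like class.

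Most other members were widely expressed. Atp2a2 was highest in nuclei like interstitial cells of Cajal, the pacemaker cells of the gut, at 2585 CPM in WT and 3209 in KO, and Atp2a3 in epithelial-like nuclei at 678 and 355. Itpr1 was high in fibroblast-like nuclei (1692 and 1203). Ryr2 in enteric neuron-like nuclei (1435 and 1148) came near its smooth muscle-like level.

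Chromatin accessibility at the starts of the genes could be read for few members. In smooth muscle-like nuclei, no called region lay within 500 bases of the start of Casq2, Pln, Sln, Atp2a3 or Ryr3 in either library, which says nothing of accessibility below the calling threshold. Regions were called separately in each library, and their lengths differ, so accessibility is given as cuts per kb and per 1000000 cuts of the class. The Stim1 start had 134 (106 to 169) in WT and 113 (85.3 to 147) in KO, and the Itpr1 start 72.7 (53.2 to 96.9) and 91.5 (65.9 to 124). The intervals overlap at both. At the Atp2a2 start WT had 2 regions, with 63.2 (44.9 to 86.4) and 25 (14 to 41.3), and KO had 1, with 72.2 (44.1 to 112). A region at the Casq1 start was called in WT alone, with 36.0 (23.3 to 53.1), and one at the Ryr2 start in KO alone, with 79.4 (52.3 to 116). Over the Casq2 gene body no region was called in WT and 2 in KO, with 14 cuts.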

How the data were processed

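Bulk values are the deposited raw counts per gene of 12 libraries; the authors' pipeline included STAR 2.0.4b, Subread featureCounts 1.4.5 and edgeR with GRCm38/mm10, per the submitters' processing notes, and no source used here says whether strand was used. Repeated gene identifiers (276 of 40757 rows) were dropped. All 12 libraries were fitted together with edgeR 4.0.16 (R 4.3.3; quasi-likelihood test, TMM scaling, low counts filtered) on 20886 genes with Benjamini-Hochberg adjustment and a threshold of 0.05. No pair of replicates agreed within counting noise. Whether a tag shared between tissues names the same animal is not stated, and the main fit did not pair libraries by tag. Nuclei matrices hold counts made by the authors with Cell Ranger (cellranger-arc, per the file headers). Every deposited gene value was even and was divided by 2, with the reason unknown; 11.6% (WT) and 11.5% (KO) of region values were odd and stayed as deposited. Nuclei were clustered with 2000 variable genes, 30 components and 15 neighbours (Leiden resolution 1). A doublet caller marked 2 WT and 1 KO barcodes, 0.0749% and 0.0574%, so it did not work and doublets remain. Clusters 12 and 13 stayed unnamed, and no cluster was named for vascular mural cells. UMI intervals are exact Poisson and shares exact binomial (Clopper-Pearson), at 95%; the limit for a count of 0 is 3 counts. A ratio needed 20 UMIs. Named genes are all 10 members, the 3 calcium handling genes with the smallest p per tissue, and the 5 genes most like Casq2 and Pln; Calr in nuclei, and Carmn, Cep85l and Ckm, were named after their values were seen. Members and lists were chosen with earlier results of these data known. Simulated counts were used to test the edgeR colon comparison only.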

Additional observations from a re-analysis of the deposited data

How the results depend on the processing

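Depth limits Sln, Casq1 and, in nuclei, Casq2; no test is possible with 1 nuclei library per genotype. Leaving out 1 library at a time kept direction and side of the threshold for 450 member fold changes, reversed 20, and moved 7 below and 3 past the threshold; the other alternatives kept 323, reversed 16, and moved 7 below and 7 past it. The causes were not tested.

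Members called in colon numbered 0 with only the groups compared, and the calcium handling list 4 with smooth muscle marker scaling, 1 with a filter of 1 CPM and 3 with DESeq2. In jejunum DESeq2 called 2 members and 1 gene of the list, and 1 member was called without KO colon t4 and KO jejunum m1. DESeq2 called 2 members in the colon minus jejunum change. In WT colon against WT jejunum 1 was called with a filter of 1 CPM, which drops Sln. Leaving out 1 library gave 1 to 2 members and 0 to 1 list genes in colon, 0 to 1 of each in jejunum, 0 to 1 members for the difference, and 1 to 3 between WT tissues. Shares of all genes called are given above for DESeq2, but not for the other fits here or the block fits below. Changes in these counts were therefore not set apart from changes in calls over all genes.

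Smooth muscle marker scaling moved the median of all genes by 0.69 (colon), -0.19 (jejunum), 0.88 (difference) and -0.36 (WT tissues), and turned the sign in colon of Atp2a3 (0.465), Ryr2 (0.477), Ryr3 (0.304) and Itpr1 (0.170), in the difference of Ryr2 (0.192) and Ryr3 (0.750), and between WT tissues of Ryr3 (-0.317). Without KO colon t4 and KO jejunum m1, Atp2a3 was 0.27 and Ryr2 0.17 in colon.

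Deviations of same-tag libraries from their group means correlated between the tissues at 0.1002, -0.008 and 0.061 in WT and -0.163 and -0.0946 in KO. Unlike tags reached 0.348 (KO colon t4 with KO jejunum m1) and -0.390 (KO colon t4 with KO jejunum t1). With 3 libraries a group, such values cannot decide whether a shared tag names 1 animal. With a replicate block by tag 0 members were called in colon (Casq2 -3.18, adjusted p = 0.0945; Pln -3.20, adjusted p = 0.2175) and 1 between WT tissues, where a replicate block within genotype gave 0. The block by tag reversed Atp2a3 (0.477) and Ryr2 (0.049) in colon, Casq1 (0.185), Atp2a2 (0.150) and Atp2a3 (0.154) in jejunum and Stim1 in the difference (-0.109), which was -0.252 with the block within genotype.

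Leave-one-out ranges that cross 0 were, in colon, -0.332 to 1.04 for Casq1, -0.427 to 0.256 for Atp2a3, -0.745 to 0.154 for Ryr2 and -0.036 to 0.446 for Stim1; in jejunum, -0.435 to 0.0023 for Ryr3 and -0.004 to 0.382 for Stim1; in the difference, -0.029 to 0.925 for Atp2a3, -0.416 to 0.238 for Ryr3, -0.211 to 0.310 for Itpr1 and -0.251 to 0.273 for Stim1; and between WT tissues, -0.297 to 0.357 for Ryr3. A fit to only the groups compared was not run for the difference, which needs all groups. In nuclei, 27 alternative ratios stayed within the counting interval and 13 did not; a minimum of 1000 UMIs gave a log2 ratio of -1.82 for Atp2a3.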
